A study of Mus musculus with 2 samples.

Results

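The Iroquois homeobox genes *Irx1*, *Irx2*, *Irx3*, *Irx4*, *Irx5* and *Irx6* were followed across the cell types of the embryonic mouse eyecup. They were taken by symbol, and 6 of the 31053 gene rows in the deposited counts carried these names. Single-cell RNA-seq had been performed on eyecups of mouse embryos at E13.5 (days of gestation), and each eyecup preparation held retina, lens and blood. The control library (genotype Six3+/-;Six6+/-) came from eyecups without GFP and carried 1 null allele of each gene. The DKO library (genotype Six3F/F;Six6-/-;a-Cre) came from a littermate whose retinas contained GFP-positive rosettes, and it lacked *Six6* in every cell. The a-Cre transgene acts in the peripheral and not in the central retina, so DKO retinas also contain cells that keep *Six3*. Each genotype was represented by the eyecups of 1 embryo and by 1 library, so no test between genotypes was possible and no p-value is given. Parentheses give 95% intervals, which hold counting error and nothing of the variation between animals, and cells of 1 library are not replicates.

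Irx genes encode homeodomain transcription factors of the TALE class, which carry an extra loop in the homeodomain, and they lie in a pair of clusters in the mouse genome. They are known for their roles in patterning the neural tube, heart and limb. In the retina several of them mark ganglion cells, the projection neurons whose axons form the optic nerve, and some also mark bipolar cells at later stages. *Six3* and *Six6* encode related homeodomain factors that are required in retinal progenitor cells.

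In the mm10 genome the family occupied 2 loci. *Irx1* (ENSMUSG00000060969) lies at chr13:71957921-71963723 on the minus strand, *Irx2* (ENSMUSG00000001504) at chr13:72628820-72634198 and *Irx4* (ENSMUSG00000021604) at chr13:73260479-73269608, both on the plus strand. On chromosome 8, *Irx3* (ENSMUSG00000031734) lies at chr8:91798525-91802067 on the minus strand, *Irx5* (ENSMUSG00000031737) at chr8:92357625-92376286 and *Irx6* (ENSMUSG00000031738) at chr8:92674288-92680956, both on the plus strand. Neighbouring members are separated by 665 kb (*Irx1* to *Irx2*), 626 kb (*Irx2* to *Irx4*), 556 kb (*Irx3* to *Irx5*) and 298 kb (*Irx5* to *Irx6*). The homeobox, the part of each coding sequence that encodes the DNA-binding homeodomain, was compared between the members. Over 189 bases the 15 pairs of genes were identical at 83.1% to 91.0% of positions. The stretch of 60 bases around the recognition helix is printed here so that the members can be compared in the part of the protein that contacts DNA. Capitals mark bases unlike *Irx3*, and the sequences were read 5′ to 3′ on the coding strand from the GENCODE vM21 transcripts.
Irx1: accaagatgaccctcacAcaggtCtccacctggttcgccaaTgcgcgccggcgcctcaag
Irx2: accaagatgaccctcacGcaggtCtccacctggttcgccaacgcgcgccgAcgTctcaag
Irx3: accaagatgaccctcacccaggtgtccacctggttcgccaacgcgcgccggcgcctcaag
Irx4: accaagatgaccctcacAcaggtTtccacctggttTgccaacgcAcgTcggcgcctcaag
Irx5: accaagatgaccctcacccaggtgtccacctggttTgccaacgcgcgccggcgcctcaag
Irx6: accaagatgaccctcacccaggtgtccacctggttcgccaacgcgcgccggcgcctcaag
In this stretch *Irx6* was identical to *Irx3* and *Irx5* differed from it at 1 base, while *Irx1*, *Irx2* and *Irx4* differed at 3, 4 and 5 bases. Each of these differences falls on the third base of a codon and leaves the encoded amino acid unchanged. The members thus encode the same amino acids in this stretch. The libraries themselves count reads from the 3′ ends of transcripts.

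The libraries held 85589515 UMIs (unique molecular identifiers, each counting 1 captured transcript) in control and 85173276 in DKO. After filtering, 9822 control and 12146 DKO cells remained, with medians of 7620 and 5879 UMIs per cell, and the libraries shared 20 cell barcodes among these cells. Cells were clustered again without the Irx genes. The names of clusters carry the word like, and the share of markers that a name needed was chosen after the clusters had been seen, so the names may differ from those of the study. The early ganglion-like class was cluster 4 (612 control and 1118 DKO cells), in which 9 of 10 early ganglion markers stood above the other cells. The late ganglion-like class was cluster 7 (368 and 993 cells), with 11 of 12 late ganglion markers above the other cells. *Irx3* and *Irx5* stood among the 10 leading genes of cluster 7 although neither had been used to build it. Of the targeted genes, *Six6* stood at 246 UMIs per 1000000 UMIs of the cells (CPM) in all control and 41.7 in all DKO cells, and *Six3* at 302.0 and 316. The deletion in *Six3* removes exon 1 and not the 3′ end that is counted here, so the *Six3* level is an indirect check. The study takes a low *Six3* mRNA level as a mark of deficient cells, and it reported lower 3′ coverage in bulk RNA-seq of mutant retinas. For its lists of changed genes it compared control cells with DKO cells chosen by counts of the Cre vector. The ratios given here take in all DKO cells of a class. No row for Cre or GFP is listed. In late ganglion-like cells *Six3* stood at 685 CPM in control and 830 in DKO, and in early ganglion-like cells at 775 and 608. For *Six6* these levels were 158 and 42.6 in late and 139 and 60.1 in early ganglion-like cells.

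Transcripts of the Irx family lay mainly in ganglion-like cells of both libraries. The 6 genes together gave 3734 UMIs in control and 6611 in DKO, and the early and late ganglion-like cells held 76.1% of them in control and 84.6% in DKO. The late class alone held 48.7% in control and 73.3% in DKO, whereas the early class held 27.4% and 11.3%. Over all cells of a library the DKO against control log2 ratio was 1.32 for *Irx3* (8.62 and 21.6 CPM in control and DKO), 1.23 for *Irx5* (14.0 and 33.0 CPM), 1.08 for *Irx6* (1.60 and 3.39 CPM), 1.13 for *Irx1* (0.236 and 0.518 CPM) and 3.45 for *Irx4* (0.311 and 3.41 CPM). *Irx2* was the exception, at 21.6 CPM in control and 19.7 in DKO (log2 ratio -0.13). The late ganglion-like cells numbered 368 of 9822 control cells and 993 of 12146 DKO cells, so these totals moved together with the number of late cells, and the values within a class are given next.

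**Figure D1:**
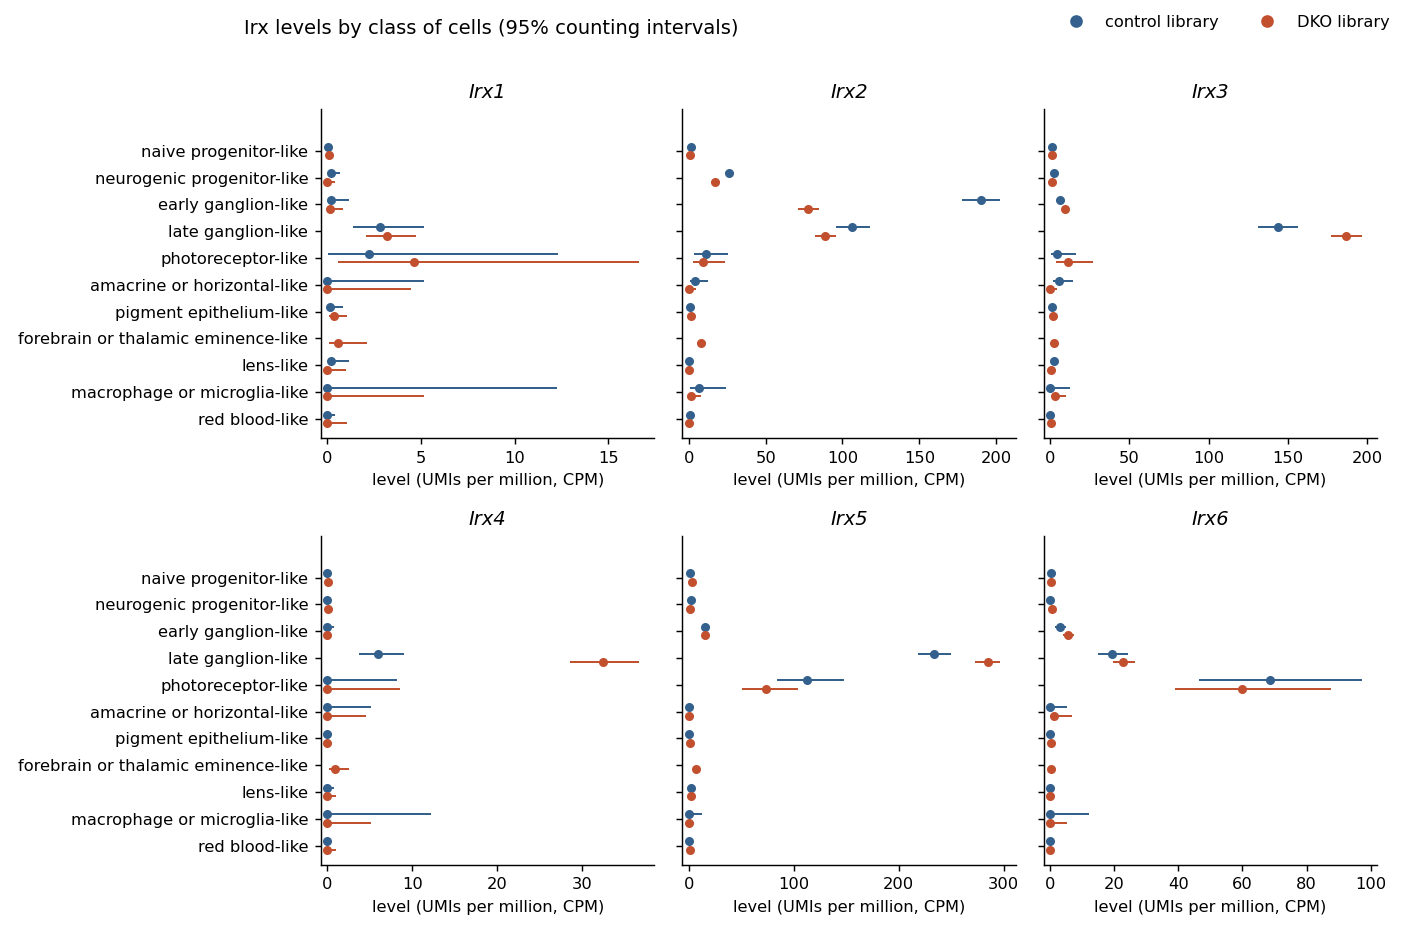
Level of each Irx gene (CPM on a linear axis, scaled apart for each gene) in 11 named cell classes, with points for the control and DKO libraries and bars for 95% counting intervals. Irx3, Irx4 and Irx5 stand highest in late ganglion-like cells, Irx2 in early (control) and late (DKO) ganglion-like cells, and Irx6 in photoreceptor-like cells, while the intervals of Irx1 are wide.

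Each member had its own order of cell types. Cells like periocular mesenchyme (4 in control and 33 in DKO) were too few to be placed in it. Their DKO cells held 6 UMIs of *Irx3* (27.7 CPM, 10.2 to 60.4) and 3 of *Irx1* (13.9 CPM, 2.86 to 40.5). *Irx2* was highest in control early ganglion-like cells at 190 CPM (178 to 203), followed by control late cells at 106 (96.0 to 118) and neurogenic-like progenitors at 26.3 (23.3 to 29.6). Photoreceptor-like cells followed at 11.05 CPM from 5 UMIs, an interval that overlapped that of the neurogenic-like cells, and naïve-like progenitors held 1.09. In DKO the order of early and late cells was turned, with 77.6 CPM (71.2 to 84.5) in early and 88.8 (82.3 to 95.7) in late cells, although these intervals overlapped.

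*Irx3* and *Irx5*, neighbours on chromosome 8, were late ganglion genes in both libraries. *Irx3* stood at 144 CPM (131 to 157) in control and 187 (177 to 197) in DKO late cells, against 6.31 and 9.56 in early cells and 2.41 and 1.26 in neurogenic-like cells. *Irx5* stood at 234 CPM (218 to 250) and 285 (273 to 297) in late cells, and at 15.8 and 15.1 in early cells. Photoreceptor-like cells were next highest for *Irx5*, with 113 CPM (83.9 to 148) in control and 73.7 (50.4 to 104) in DKO, from 51 and 32 UMIs.

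*Irx6* had its highest level outside the ganglion-like classes. It was highest in photoreceptor-like cells, which held 24.0% of its control and 9.45% of its DKO UMIs, with 68.5 CPM (46.5 to 97.2) in control and 59.8 (39.1 to 87.7) in DKO, from 31 and 26 UMIs in 87 and 114 cells. Late ganglion-like cells followed at 19.1 (14.9 to 24.3) and 22.8 (19.6 to 26.4) CPM, and these intervals lay below those of the photoreceptor-like cells. In amacrine- or horizontal-like cells 0 UMIs of *Irx6* were counted in control and 1 in DKO.

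*Irx4* was the member most confined to the late class in these counts, and *Irx1* the weakest. *Irx4* gave 21 UMIs in control and 254 in DKO late cells, and 0 UMIs in the early cells of both libraries. The other cells of the control library held 4 UMIs, all in an unnamed cluster that expressed late ganglion markers and in which 87.5% of the cells were predicted doublets. In DKO that cluster held 17 UMIs, cells like forebrain or thalamic eminence 3, and neurogenic-like and naïve-like cells 1 each. *Irx1* gave 10 UMIs in control and 25 in DKO late cells, or 2.82 CPM (1.35 to 5.18) and 3.19 (2.06 to 4.71), 1 UMI in the early cells of each library, and 1 and 2 UMIs in photoreceptor-like cells.

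The comparison of late with early ganglion-like cells asked how the family moved as ganglion cells matured. A gene was counted as higher or lower when it differed at least 2-fold and had at least 50 UMIs over the groups compared, and such counts and medians of members are descriptions. In control, 4 of 6 members could be judged, and 3 of them, *Irx3*, *Irx5* and *Irx6*, were higher in late cells, against 4.91% of all 9102 genes judged. None was lower, against 3.22% of genes. *Irx3* (30 early and 510 late UMIs) and *Irx6* (14 and 68) passed the UMI minimum only through the late cells. The median log2 ratio of the judged members was 3.29, against -0.03 over all genes. *Irx3* was 22.8-fold higher (log2 4.51, 3.98 to 5.09), *Irx5* 14.8-fold (log2 3.89, 3.55 to 4.25) and *Irx6* 6.50-fold (log2 2.70, 1.86 to 3.65). *Irx2* went the other way, with a log2 ratio of -0.84 (-1.01 to -0.66). *Irx4*, with too few UMIs to be judged, was at least 9.37-fold higher in late cells when early cells were set to a floor of 3 UMIs (the counting interval started at 6.97-fold), and *Irx1* was 13.4-fold higher (1.90 to 581) from 10 against 1 UMIs.

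In DKO, 5 of 6 members could be judged and 4 were higher in late cells, against 4.93% of 10372 genes, while 0 were lower, against 3.82%. The median log2 ratio of the judged members was 4.24, against -0.05 over all genes. *Irx3* was 19.5-fold higher (log2 4.29, 3.93 to 4.67), *Irx5* 18.9-fold (log2 4.24, 3.96 to 4.54) and *Irx6* 4.15-fold (log2 2.05, 1.54 to 2.60). *Irx4* and *Irx6* (38 early UMIs) passed the UMI minimum only through the late cells. *Irx4* was at least 74.6-fold higher there against the floor of 3 UMIs, and its counting interval started at 60.2-fold. *Irx2* differed little, with a log2 ratio of 0.19 (0.03 to 0.36), and it turned to -0.95 when the cells of an unnamed cluster described further on were left out of the early class. With cluster 16, the cluster of predicted doublets, added to the late class the log2 ratio of *Irx2* was -0.04.

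**Figure D2:**
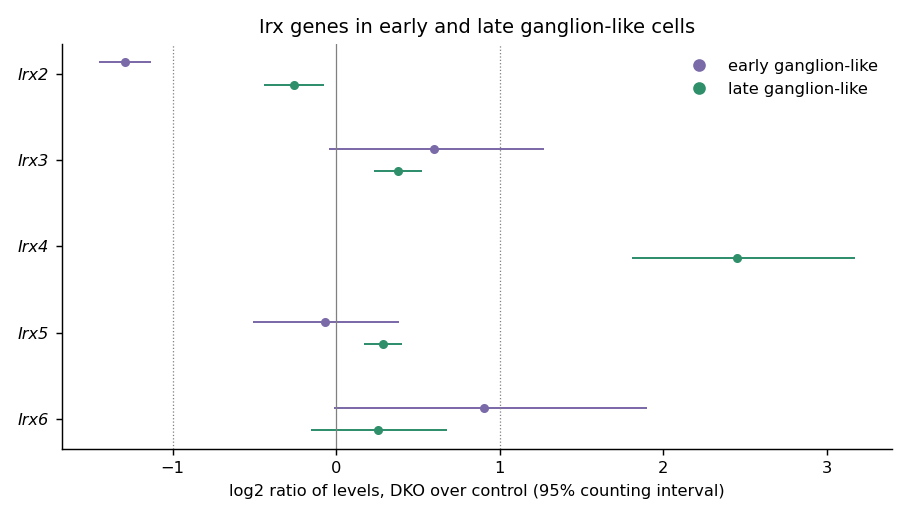
Log2 ratio of DKO over control for the Irx genes with enough UMIs in early and late ganglion-like cells, with bars for 95% counting intervals and dotted lines at a 2-fold difference. Irx2 lies beyond 2-fold lower in early cells and Irx4 beyond 2-fold higher in late cells, while the other points lie between the lines.

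In late ganglion-like cells, *Irx4* was the only judged member that differed at least 2-fold between genotypes. It stood at 5.91 CPM (3.66 to 9.04) in control and 32.4 (28.5 to 36.7) in DKO, which was 5.48-fold higher in DKO (3.51 to 9.01), a log2 ratio of 2.45. Thus 1 of 5 judged members was higher, against 2.28% of 9829 genes, and 0 were lower, against 0.885%. *Irx4* passed the UMI minimum only through the DKO cells, where it is high. The median log2 ratio of these members was 0.28, against 0.03 over all genes. *Irx3* (log2 ratio 0.38, 0.23 to 0.53) and *Irx5* (0.28, 0.17 to 0.40) were slightly higher in DKO, by less than 2-fold. *Irx2* was slightly lower (-0.26, -0.44 to -0.08). The intervals of *Irx6* (0.25, -0.16 to 0.68) and *Irx1* (0.18, -0.93 to 1.40) held 0.

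The difference in *Irx4* was also seen in the cells counted one by one. An *Irx4* UMI was found in 4.89% of control and 17.9% of DKO late cells, although DKO cells had fewer UMIs (medians of 9649.5 and 7822). With 2000 UMIs drawn at random from every cell (thinning, for which 5 control and 25 DKO cells had too few), the shares were 0.551% (0.0668% to 1.98%) and 5.27% (3.95% to 6.87%). Red blood-like cells served as background for free RNA, and 0 *Irx4* UMIs were counted in the 1308 control and 791 DKO cells of this class, at medians of 8107.5 and 5844 UMIs. When the class was divided at resolution 1, the larger part (255 control and 763 DKO cells) held 7.55 and 38.2 CPM (log2 2.34, 1.66 to 3.098). The smaller part, which clustered there with some of the early cells, held 2 and 20 UMIs (log2 2.59, 0.55 to 5.73). In that smaller part *Irx3* was 73.7 CPM in control and 151 in DKO (log2 1.04, 0.67 to 1.43) and *Irx5* 138 and 242 (log2 0.82).

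The difference was also present among the most mature cells. Late cells were put into 4 groups by their share of late marker UMIs, with 92 control cells in each and 214, 91, 163 and 525 DKO cells. In the group of lowest share *Irx4* gave 6 UMIs in each library. In the following groups it gave 2, 5 and 8 UMIs in control against 26, 55 and 167 in DKO. In the group of highest share this was 8.95 CPM in control and 40.6 in DKO (log2 2.18, 1.17 to 3.42). DKO late cells thus held more cells of high late-marker share, and *Irx4* was higher in DKO in each of the upper groups. The group of highest share has no upper limit, so shares inside it may differ between the libraries.

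In early ganglion-like cells, *Irx2* was the only judged member that differed at least 2-fold between genotypes. It stood at 190 CPM in control and 77.6 in DKO, 2.45-fold higher in control, a log2 ratio of -1.29 (-1.45 to -1.14). *Irx1* and *Irx4* had too few UMIs to be judged, and 1 of the other 4 members was lower, against 1.19% of 9795 genes, and 0 were higher, against 3.49%. The median log2 ratio of these members was 0.27, against 0.05 over all genes. *Irx3* (30 control and 66 DKO UMIs) passed the UMI minimum only through the DKO cells, and *Irx6* (14 and 38) only through the sum of both libraries. *Irx3* (log2 ratio 0.60, -0.04 to 1.27), *Irx5* (-0.07, -0.51 to 0.38) and *Irx6* (0.90, -0.01 to 1.90) had intervals that held 0. An *Irx2* UMI was found in 64.1% of control and 26.1% of DKO early cells, and in 28.6% (25.1% to 32.4%) and 13.6% (11.6% to 15.8%) after thinning to 2000 UMIs, which left out 4 and 16 cells. The unthinned shares in red blood-like cells were 1.91% and 1.64%, and 0.466% and 0.181% when cluster 12 of this class, in which 22.4% of the cells were predicted doublets, was left out.

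The early class did not hold the same kinds of cells in both libraries. At resolution 1 it divided into 3 subsets, shown in the plot of early subsets. Subset A, an unnamed cluster with *Uncx* and *Tac1* (genes of the forebrain or thalamic eminence list) among its leading genes, made up 34.0% of control early cells and 62.9% of DKO early cells (208 and 703 cells). Subset B carried *Pou4f2* (the ganglion cell factor Brn3b) and held 23.5% and 14.0%. Subset C, with *Cntn2* and *Nefm* leading, clustered with late cells and held 40.8% and 22.5%.

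**Figure D3:**
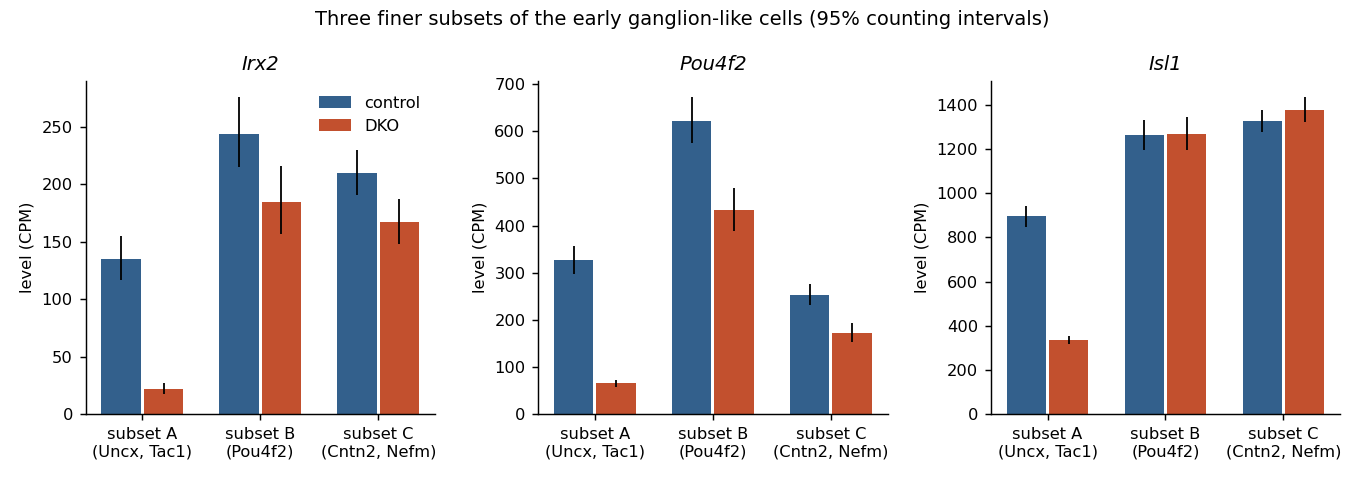
Levels of Irx2, Pou4f2 and Isl1 (CPM, bars from 0, lines for 95% counting intervals) in 3 subsets of early ganglion-like cells of the control and DKO libraries. Irx2 is 135 CPM in control and 22.4 in DKO cells of subset A, where Pou4f2 and Isl1 are lower in DKO too, and in subsets B and C Irx2 differs by less than 2-fold.

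*Irx2* was lowest in DKO cells of subset A. It stood there at 135 CPM in control and 22.4 in DKO, from 203 and 97 UMIs (log2 ratio -2.59, -2.96 to -2.24). In the same cells *Pou4f2* stood at 326 and 65.7 CPM, *Isl1*, another ganglion cell homeobox gene, at 895 and 336, *Uncx* at 112 and 417 and *Tac1*, which encodes a neuropeptide precursor, at 16.6 and 496. In subset B *Irx2* stood at 244 and 185 CPM (log2 -0.40, -0.70 to -0.11), and in subset C at 209.8 and 167 (log2 -0.33, -0.55 to -0.11). The targeted gene *Six3* stood at 727 CPM in control and 429 in DKO in subset A, at 719 and 920 in subset B and at 854 and 923 in subset C. Any link between the *Six3* and *Irx2* levels was not tested. Without subset A, the log2 ratio of *Irx2* over the early class was -0.33 and none of the judged members passed 2-fold. The part of the change in cell kinds in the lower *Irx2* level was not tested.

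A division of the early class by *Pou4f2* gave the same direction. Cells with a *Pou4f2* UMI made up 82.2% of control (503 cells) and 41.4% of DKO early cells (463 cells). In them *Irx2* stood at 199.5 CPM in control and 131 in DKO (log2 -0.60, -0.78 to -0.43). In cells without a *Pou4f2* UMI (109 and 655) the levels were 143 and 37.5 CPM (log2 -1.93). In the *Pou4f2*-positive cells *Irx3* stood at 5.57 and 12.5 CPM (log2 1.17, 0.37 to 2.0), and *Irx6*, under the UMI minimum with 11 and 25 UMIs, at 2.79 and 8.46. In the cells without *Pou4f2* the levels were 9.93 and 7.34 CPM for *Irx3* and 3.73 and 3.29 for *Irx6*, with no excess in DKO.

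All early and late ganglion-like cells were then ordered by their late-marker minus neurogenic and early marker share. They were put into 5 bins of 196 control cells each. The DKO cells in these bins numbered 113, 508, 363, 321 and 806. The early markers include *Pou4f2* and *Isl1*, so cells with less of them move to later bins. *Pou4f2* stood at 540 CPM in control and 195 in DKO in the first bin, and at 387 and 118 in the next. A bin thus did not hold the same kinds of cells in both libraries, and stage was not matched. *Irx2* was lower in DKO in the first bins and close to control in the last. It stood at 194, 189, 164, 115 and 124 CPM in control and at 42.8, 43.4, 74.6, 89.7 and 108 CPM in DKO from the least to the most mature bin. The log2 ratio was -2.18 (-2.84 to -1.59) in the first bin, -2.12 (-2.43 to -1.82) in the next, -1.13 (-1.41 to -0.86) in the middle bin, -0.36 (-0.65 to -0.07) in the fourth and -0.19 (-0.41 to 0.03) in the last.

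**Figure D4:**
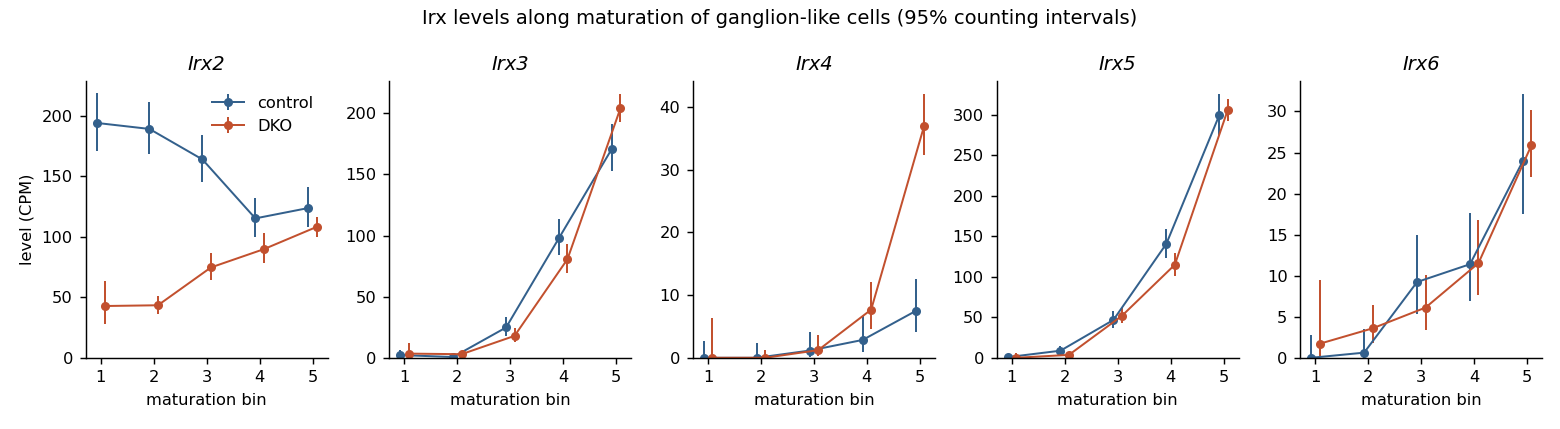
Level of Irx2, Irx3, Irx4, Irx5 and Irx6 (CPM, with 95% counting intervals) in 5 bins of ganglion-like cells from least to most mature, for control and DKO. Irx2 is lower in DKO in the early bins, Irx3 and Irx5 stand higher in the later bins of both libraries, and Irx4 separates the libraries in the last bin.

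*Irx3* and *Irx5* stood higher in the later bins of both libraries and differed little between genotypes. *Irx3* stood at 2.23, 0.626, 24.8, 98.0 and 171 CPM in control and at 3.42, 2.94, 17.9, 80.7 and 204 CPM in DKO. *Irx5* stood at 0.743, 8.76, 46.7, 141 and 299.6 CPM in control and at 0, 3.59, 51.8, 115 and 306 CPM in DKO. In the last bin the log2 ratio was 0.25 (0.08 to 0.44) for *Irx3* and 0.03 (-0.11 to 0.17) for *Irx5*, and in the fourth bin *Irx5* was lower in DKO (-0.29, -0.55 to -0.04). Over all 5 bins at equal weight, which takes in early and late cells, the log2 ratio of *Irx5* was -0.06. Within the late class, the 4 groups of late-marker share gave 0.12, 0.20, -0.08 and 0.11, and each of these intervals held 0. *Irx4* gave 0 UMIs in the 2 least mature bins of both libraries, 2 and 3 UMIs in the middle bin and 5 and 18 UMIs in the fourth (log2 1.43, -0.05 to 3.22). In the last bin 14 control and 233 DKO UMIs were counted, a log2 ratio of 2.31 (1.53 to 3.20). *Irx6* stood at 24.0 CPM in control and 25.9 in DKO in this bin.

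Outside the ganglion-like classes, 50 UMIs were reached by *Irx2* in neurogenic-like cells, by *Irx2*, *Irx3* and *Irx5* in naïve-like cells and by *Irx5* and *Irx6* in photoreceptor-like cells. In neurogenic-like progenitors *Irx2* stood at 26.3 CPM in control and 17.1 (14.5 to 20.1) in DKO, from 273 and 149 UMIs (log2 -0.62, -0.92 to -0.33). Of the 2 clusters of that class, cluster 3 held 52.6 and 26.0 CPM (log2 -1.01, -1.32 to -0.71), and cluster 8 held 4.42 and 1.57. *Irx5* in naïve-like progenitors was low in both libraries, with 1.25 CPM in control and 2.81 in DKO from 45 and 80 UMIs (log2 1.17, 0.62 to 1.73). In red blood-like cells *Irx5* stood at 0.495 CPM (0.161 to 1.15) in control and 1.41 (0.519 to 3.08) in DKO. With cluster 12 left out, these levels were 0.111 (0.00282 to 0.621) and 0.830 (0.171 to 2.43). The interval of control naïve-like cells (0.914 to 1.68) lay above the background without cluster 12 and overlapped that of the whole red blood-like class. In DKO the interval of naïve-like cells (2.23 to 3.50) overlapped both backgrounds. By cluster, DKO naïve-like cells held 4.03 CPM (2.89 to 5.46) in cluster 5, above the background without cluster 12. Clusters 0 and 1 held 1.90 (1.01 to 3.24) and 2.28 (1.49 to 3.34), which overlapped it. Whether the low level in naïve-like cells is expression was not tested. *Irx2* (log2 -0.49, -1.31 to 0.30) and *Irx3* (log2 -0.09, -0.76 to 0.57) had intervals in naïve-like cells that held 0. In photoreceptor-like cells the intervals of the ratio held 0 for *Irx5* (log2 -0.61, -1.30 to 0.05) and *Irx6* (log2 -0.19, -1.01 to 0.60). Cells like forebrain or thalamic eminence were found only in DKO (735 cells), where 27 UMIs of *Irx2* and 23 of *Irx5* were counted, 7.86 and 6.70 CPM.

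Irx members were found in the same cell more often in the late than in the early class. Without thinning, 84.2% of control and 80.1% of DKO late cells held a UMI of any member, and 61.4% and 65.9% held UMIs of 2 or more members. In early cells these shares were 67.2% and 32.7% for any member and 8.82% and 5.72% for 2 or more. After thinning, any member was found in 52.6% and 59.1% of late cells and in 31.7% and 17.2% of early cells. The thinned shares for 2 or more members were 21.8% and 25.7% of late cells and 1.32% and 1.45% of early cells.

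*Irx5* was found more often in late cells with its neighbour *Irx3* than in those without. Among thinned late cells of the control, 41 of 84 cells with an *Irx3* UMI also held *Irx5*, or 48.8% (37.7% to 60.0%), against 25.4% (20.4% to 31.0%) of the 279 cells without *Irx3*. In DKO 155 of 282 such cells held *Irx5*, or 55.0% (49.0% to 60.9%), against 29.7% (26.3% to 33.3%) of 686. Among the DKO cells with an *Irx4* UMI, 30 of 51 held *Irx5*, or 58.8% (44.2% to 72.4%), against 35.9% (32.8% to 39.1%) of the others. *Irx6* was found in 15.7% (7.02% to 28.6%) of the *Irx4* cells and in 3.60% (2.49% to 5.02%) of the others. The late class mixes stages. In control, *Irx3* stood at 84.8 and 200 CPM and *Irx5* at 123 and 337 CPM in the groups of lowest and highest late-marker share. The part of stage in the gaps was not tested. Gaps were seen within and between chromosomes, and not for every pair. *Irx6* was found in 5.01% (3.00% to 7.81%) of thinned DKO late cells with its neighbour *Irx5* and in 3.78% (2.41% to 5.61%) of those without. *Irx4*, with gaps to *Irx5* and *Irx6*, lies on chromosome 13 and they lie on chromosome 8. *Irx6*, on the same chromosome as *Irx3*, was found in 4.61% (2.48% to 7.75%) of thinned DKO late cells with *Irx3*. Among those without *Irx3* the share was 4.08% (2.73% to 5.85%). *Irx2*, from the other chromosome, showed no gap to *Irx3* either. An *Irx3* UMI was found in 26.8% of control late cells with *Irx2* and in 22.3% of those without, and in 33.1% and 28.5% of such DKO cells, with overlapping intervals in both libraries.

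The genes whose levels over clusters were most like each member were found by correlating log2(CPM + 1) over 38 points, each a cluster in 1 library. The points share libraries and depth, so r is a description. For *Irx2* the most alike genes were *Isl1* (r 0.953) and *Pou4f2* (0.937), both of which encode homeodomain factors. For *Irx3* they were *P2rx3* (0.927), which encodes an ATP-gated ion channel, *Mstn* (0.886), which encodes myostatin, and *Gnal* (0.882), which encodes a G protein subunit. For *Irx4* they were *Ppp1r1c* (0.970), *Mstn* (0.955) and *Plekhd1* (0.925). *Irx5* and *Irx6* shared *Ret*, a receptor tyrosine kinase gene, as their first match (0.906 and 0.909), and were alike to each other (0.893). *Irx3* and *Irx5* had an r of 0.858, and *Irx2* and *Irx4* 0.535.

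The listed genes around the Irx clusters stayed within 2-fold wherever they could be judged. Some lie far from any member, such as *Med10* at 2142 kb from *Irx1*. Of 14 neighbours and antisense genes with a row in the counts, 8 could be judged in each comparison. In either direction 0 of 8 passed 2-fold, against 0.885% to 4.93% of all genes judged. A count of 0 is near these shares and says little about the loci. The median log2 ratios were 0.00 in early and 0.04 in late cells between genotypes. From early to late cells they were 0.30 in control and 0.26 in DKO. *Ndufs6*, which lies 50.2 kb from *Irx4* and encodes a subunit of respiratory complex I, stood at 196 CPM in control and 220.1 in DKO late cells. *Mrpl36*, 58.9 kb from *Irx4*, stood at 61.9 and 57.0 CPM. *Fto*, 130.1 kb from *Irx3*, stood at 64.2 and 65.5 CPM. *Irx3os* overlaps *Irx3* on the opposite strand and gave 3 control and 22 DKO UMIs in late cells.

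Of the other TALE homeobox genes, whose products can bind DNA together with homeodomain partners, *Meis2* alone passed 2-fold between genotypes. It was higher in DKO early cells (15.1 and 73.6 CPM, log2 2.28) and DKO late cells (10.98 and 27.3 CPM, log2 1.31). The early class did not hold the same kinds of cells in both libraries, and their part in its ratios was not tested. In early cells 1 of 10 judged TALE genes, out of 12 listed, was higher (3.49% of all genes judged) and 0 lower (1.19%), with a median log2 ratio of 0.02, the highest after *Meis2* being *Pbx4* (0.66) and *Pknox2* (0.40) and the lowest *Tgif2* (-0.77) and *Pbx3* (-0.63). In late cells 1 of 8 was higher (2.28% of all genes) and 0 lower (0.885%), with a median of -0.02. From early to late, 1 of 8 was higher in control (*Pbx4*, log2 1.01, against 4.91% of all genes) and 0 lower (3.22%). In DKO 0 of 9 were higher (4.93%) and 2 lower (3.82%), *Pknox2* (-1.52) and *Meis2* (-1.43).

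Ganglion cell transcription factors differed between genotypes in a few members. Subset A made up 34.0% of control and 62.9% of DKO early cells, and its part in the ratios of early cells was not tested. In early cells 3 of 24 judged factors, out of 28 listed, were higher in DKO and 0 lower (median log2 ratio 0.19), against 3.49% and 1.19% of all genes judged. The T-box gene *Eomes* went from 0 UMIs in control to 14.2 CPM in DKO, *Onecut3* from 22.1 to 52.4 CPM and *St18* from 9.88 to 22.6 CPM. *Eomes* and *St18* (47 control and 156 DKO UMIs) passed the UMI minimum only through the DKO cells. *Eomes* also stood among the leading genes of the cells like forebrain or thalamic eminence, which were found only in DKO. Low ratios were those of *Tbx2* (-0.49) and *Klf7* (-0.46). In late cells 3 of 24 were higher and 1 lower (median -0.06), against 2.28% and 0.885%. *Eomes* stood at 0 UMIs and 8.17 CPM, *Pou4f3*, a relative of *Pou4f2*, had a log2 ratio of 1.53, and *Barhl2* was lower at 77.7 and 36.5 CPM (log2 -1.09). From early to late, 3 of 22 factors were higher and 5 lower in control (4.91% and 3.22% of all genes), and 3 of 25 higher and 5 lower in DKO (4.93% and 3.82%). *Myt1l* (log2 3.103 in control and 2.82 in DKO) and *Tbx2* (2.15 and 2.45) were among the higher and *St18* (-2.55 and -3.56) and *Bhlhe22* (-2.16 and -2.89) among the lower factors in both libraries.

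Axon guidance genes were examined because *Irx4* is known in the chick retina as a regulator of *Slit1*, which encodes a guidance ligand for ganglion cell axons. In late cells *Slit1* stood at 22.2 CPM in control and 10.97 in DKO (log2 -1.02), and it was the only 1 of 15 judged guidance genes that was lower, while 2 were higher (median log2 ratio 0.12), against 0.885% and 2.28% of all genes judged. These were the receptor genes *Ephb1* (14.9 and 41.0 CPM, log2 1.46) and *Nrp2* (log2 1.41). In early cells, where *Irx4* gave 0 UMIs, *Slit1* stood at 14.3 and 14.2 CPM. There 4 of 17 judged genes were higher in DKO and 1 lower (median 0.31), against 3.49% and 1.19%. Here too the part of the unlike kinds of early cells was not tested. *Robo3* stood at 1.26 and 9.41 CPM (log2 2.90), *Plxna4* at 2.73 and 15.6 CPM (log2 2.52), and the adhesion gene *Alcam* at 29.9 and 7.96 CPM (log2 -1.91). *Robo3*, with 6 control and 65 DKO UMIs, passed the UMI minimum only through the DKO cells. From early to late, 5 of 14 were higher and 2 lower in control (4.91% and 3.22% of all genes), and 2 of 17 higher and 3 lower in DKO (4.93% and 3.82%). *Dcc*, a netrin receptor gene, had log2 ratios of -2.87 and -2.69, and *Ephb1* of 1.83 and 2.97. Any link between *Slit1* and *Irx4* was not tested in these counts.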

How the data were processed

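Single-cell RNA-seq (10x Genomics 3′ kit, version 3) of eyecups at E13.5 was available as 1 control and 1 DKO library. Per the submitters' processing notes the authors used Cell Ranger 3.1.0 and mm10, and they deposited raw UMI counts per gene and called cell, without normalization or filtering.

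As in the study's methods, cells were required to have over 200 and under 6000 genes and mitochondrial UMIs below 20%. Libraries were normalized, integrated on 2000 features and 20 dimensions and clustered at resolution 0.5 with Seurat 5.3.0 (R 4.3.3), leaving out the Irx genes, *Six3*, *Six6*, the genes of the lists, hemoglobin, *Xist*, *Tsix* and Y-linked genes. A cluster name needed 75% of a class's markers above the other cells, at least 3 detected markers and at most 50% predicted doublets, rules chosen after the clusters were seen. Scrublet (scanpy 1.11.5) scored doublets. Its automatic thresholds were 0.6354 in control and 0.2253 in DKO, and the lower of them, used for both, marked 300 cells of the control and 329 of the DKO library. These cells were kept.

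UMIs were summed per class and library and given per 1000000 UMIs (CPM), with exact Poisson intervals for levels, exact binomial intervals for shares and for the split of UMIs behind each ratio (Python 3.11.15, scipy 1.17.1). A ratio against 0 UMIs used a floor of 3 UMIs over the class. The script was tested on simulated data. Named genes were the members, *Six3* and *Six6*, genes from the 3 highest and 3 lowest ratios of each list, and the 3 most alike genes among those with at least 200 UMIs in clusters of at least 50 cells. Members and lists were chosen with earlier results of these data known. Some genes that this rule picks are not reported here.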

Additional observations from a re-analysis of the deposited data

How the results depend on the processing

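No paired analysis was possible because there was 1 library of each genotype. 12 alternatives were planned and 5 were added after the data had been seen. The higher *Irx4* level of DKO late cells stayed past 2-fold in all 15 settings that gave a value (log2 ratio 2.001 to 3.39, the lowest with bins weighted equally), and the lower *Irx2* level of DKO early cells in 10 of 13 (-1.65 to -0.23). The early class had no name at resolution 0.3 and gave no value there, and with libraries merged without integration no member reached 50 UMIs in it. For the results that moved, the cause was not tested. In early cells between genotypes, the median log2 ratio moved to -1.21 after thinning, with 1 member judged. The count of members past 2-fold became 0 at resolution 1 and without the *Uncx* and *Tac1* cluster, and 2 with the mean of per-cell CPM. The bins weighted equally run over early and late cells together, so they are not values of either class, and there 2 members (*Irx2* and *Irx4*) passed 2-fold, the median was 0.059 and the ratio of *Irx5* reversed against the late class (-0.06). In late cells the median moved to 0.53 at resolution 0.3, 0.66 at resolution 1, 0.85 with merged libraries and 0.16 in the upper part of late cells by late-marker share. For control late against early cells the median moved to 1.06 with merged libraries and 2.58 with cells gated by marker UMIs. For DKO it moved to 1.24 with merged libraries, 3.34 at resolution 1, 3.50 with gated cells, 3.87 with cluster 16 added, 3.90 in early cells with a *Pou4f2* UMI and 3.65 without the *Uncx* and *Tac1* cluster. With merged libraries the only cluster named early ganglion-like held 167 control and 203 DKO cells, with medians of 650 and 832 UMIs. The early class of the main clustering had medians of 7547.5 and 6003.5 UMIs, so the merged setting compared a different kind of cell. In that setting the direction reversed for *Irx2* (0.17) and *Irx6* (-0.81) in control late against early cells. For *Irx2* in DKO late against early cells it reversed at resolution 1 (-0.94), with cluster 16 added (-0.041), in early cells with a *Pou4f2* UMI (-0.56) and without the *Uncx* and *Tac1* cluster (-0.95). The 0 UMIs of *Irx4* in early cells allow up to 0.631 CPM in control and 0.434 in DKO.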
